A study of Mus musculus with 12 samples.

Results

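Genes of cholesterol and fatty acid synthesis, of their control and of cholesterol efflux were followed in mouse naïve CD8+ T cells after 6 h of culture. The set was given as a list of gene names and held 35 genes, of which 34 were among the 14323 gene symbols counted. Msmo1 was counted under its older symbol Sc4mol, and Fads2 was not analysed here. By role, 7 of the 34 genes belong to the mevalonate pathway, 10 to the steps from squalene to cholesterol, 6 to the control of synthesis and sterol transfer, 8 to fatty acid synthesis, and 3 to efflux and its control (Abca1, Abcg1 and Nr1h2). The cells came from the spleens of 3 adult wild type mice and were sorted as TCRβ+CD8+CD62L+CD44-, and 100000 cells per well were cultured. Wells were coated with anti-CD3, which triggers the T cell receptor, or with isotype antibody in its place (unstimulated), and in each case with 2.5 µg/ml of the anti-LAIR-1 antibody 2C7 or of its isotype control. LAIR-1 is an inhibitory receptor for collagen. The 12 libraries are 1 per mouse in each of 4 groups: unstimulated with isotype, unstimulated with anti-LAIR-1, stimulated (anti-CD3) with isotype, and stimulated with anti-LAIR-1. Anti-CD3, where present, was also used at 2.5 µg/ml. No costimulatory antibody is given for any group, and there was 1 time point.

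Cells make cholesterol from acetyl units through mevalonate, isoprenoids and squalene. The transcription factor SREBP2 (gene Srebf2) drives the genes of this pathway when sterols in the endoplasmic reticulum are low, because SCAP then carries it to the Golgi for cleavage, whereas INSIG proteins hold it back. SREBP1 (Srebf1) mainly serves fatty acid synthesis. When oxysterols accumulate, the nuclear receptors LXRα and LXRβ (Nr1h2) turn on the sterol exporters ABCA1 and ABCG1. T cells that leave quiescence need new membrane, and activated T cells are known to shift from sterol export towards sterol synthesis.

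Library totals ranged from 1781218 to 7725545 counts, and 3 counts, taken as the detection floor, were worth 0.388 to 1.68 CPM. CPM are counts relative to the size of the library, here adjusted by the TMM factors of edgeR except for the floors. Such floors cover counting error only. CPM are relative to all RNA counted, and in bulk samples fewer cells that express a gene cannot be told apart from less RNA per cell. Cd8a was at 325 to 441 CPM in every library and Cd4 at 0 to 1.59 CPM. The summed level of 10 naive CD8 T cell markers was 5934 to 6697 CPM without and 1807 to 2603 CPM with anti-CD3, while 9 activation genes (among them Nr4a1, Il2ra and Myc) rose from between 281 and 337 CPM to between 3517 and 4350 CPM. The mitochondrial share of counts was 17.65% to 20.87% without and 11.46% to 13.17% with anti-CD3. The part of these shifts in the results that follow was not tested.

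The promoters of the set were first compared with all mouse promoters in the RefSeq table (GRCm38.p6, 250 bases before to 50 bases after the start), in which 26 of the 34 genes have a window. An NF-Y box (CCAAT on either strand), which commonly lies beside SREBP sites, was found in 20 of 26 genes, among them all 8 squalene-to-cholesterol genes with a window, against 41.1% of all genes. An Sp1 box (GGGCGG) was in 20 of 26 against 38.2%, an E-box (CACGTG) in 7 of 26 against 8.09%, and a sterol regulatory element core (TCACNCCAC) in 1 of 26, Hmgcs1, against 1.44%. A pair of AGGTCA or GGGTCA repeats 4 bases apart, 1 spelling of the form that LXR binds, was in none of the 26 and in 0.0481% of all genes. Other spellings of this repeat or of the core were not searched. LXR and SREBP sites with other letters may therefore lie in these windows, those shown included. These letter matches are descriptions of a short window and do not show binding. Shown are the 250 bases before the start of Hmgcs1, the member with the core, of Fasn, the synthesis gene that rose most, and of the exporter Abca1. Hmgcs1 and Fasn were chosen after the values were seen. Capitals mark the core and the NF-Y boxes in Hmgcs1 (chr13:119690101-119690350, plus strand). In Fasn (chr11:120824548-120824797, minus strand), which has no match to the core, capitals mark the NF-Y boxes, of which a pair overlaps near the start. In Abca1 (chr4:53159896-53160145, minus strand), which has no NF-Y box, capitals mark the Sp1 boxes and the E-box.
Hmgcs1: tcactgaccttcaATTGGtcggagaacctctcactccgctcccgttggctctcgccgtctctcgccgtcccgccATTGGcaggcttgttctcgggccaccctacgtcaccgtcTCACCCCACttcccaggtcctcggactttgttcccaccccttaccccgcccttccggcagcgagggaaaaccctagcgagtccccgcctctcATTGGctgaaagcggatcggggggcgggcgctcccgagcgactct
Fasn: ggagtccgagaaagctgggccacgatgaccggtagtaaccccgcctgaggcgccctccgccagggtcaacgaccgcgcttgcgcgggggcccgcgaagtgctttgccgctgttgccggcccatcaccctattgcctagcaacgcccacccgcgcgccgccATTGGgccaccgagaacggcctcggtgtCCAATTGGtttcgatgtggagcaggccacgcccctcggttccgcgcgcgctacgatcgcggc
Abca1: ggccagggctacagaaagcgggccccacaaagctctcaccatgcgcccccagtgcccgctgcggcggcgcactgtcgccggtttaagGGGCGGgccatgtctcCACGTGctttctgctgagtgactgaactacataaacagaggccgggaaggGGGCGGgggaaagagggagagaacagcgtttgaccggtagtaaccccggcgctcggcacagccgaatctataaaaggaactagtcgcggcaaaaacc

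To see how T cell receptor stimulation alone changed the set, anti-CD3 with isotype was compared with unstimulated cells with isotype. The 2 exporters fell 6.02-fold (Abca1) and 10.2-fold (Abcg1). Parts of sterol and fatty acid synthesis rose, led by Fasn (6.98-fold) and Idi1 (6.45-fold), whereas Dhcr7, the last enzyme of cholesterol synthesis, fell 4.03-fold and the elongases Elovl6 and Elovl5 fell 4.55-fold and 3.11-fold. Of 32 genes of the set with enough counts to test, 12 were called higher and 7 lower (quasi-likelihood test of edgeR, Benjamini-Hochberg adjusted over all genes tested, threshold 0.05). That is 37.5% higher and 21.9% lower, against 35.6% higher and 35.7% lower of all 8433 protein-coding genes tested. The share that rose was therefore near the background, and the 29 synthesis and control genes (12 higher, 5 lower) had a median log2 fold change of 0.297 against -0.014 for all genes. Scd1, a desaturase with 0 to 2 counts per library, and Mvd, with 4 to 13 counts in these 6 libraries, were not tested here.

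In the mevalonate pathway, Idi1 and Fdps rose and the other 4 genes tested were not called. That is 33.3% higher and 0% lower of 6, against 35.6% and 35.7% of all protein-coding genes tested. IDI1 makes dimethylallyl diphosphate, and FDPS joins isoprenoid units into farnesyl diphosphate. Idi1 (chr13:8885501-8892451) was at 14.6, 9.12 and 10.5 CPM in mice 1 to 3 without and at 74.7, 75.7 and 86.1 CPM with anti-CD3. Every stimulated library was far above every unstimulated one (log2 fold change 2.69, SE 0.175, adjusted p-value = 2.3e-12). Fdps went from 36 ± 4.59 to 58.9 ± 6.65 CPM (mean ± SD, n = 3 in each group, as for all such values), a log2 fold change of 0.65 (adjusted p-value = 0.000408). Hmgcs1, which makes HMG-CoA and carries the sterol regulatory element core shown, was at 37.8 to 54.7 CPM without and 52.3 to 62.7 CPM with anti-CD3, and these ranges overlapped (log2 fold change 0.28, 95% interval -0.03 to 0.59, adjusted p-value = 0.0973). Without unstimulated isotype mouse 3 its log2 fold change was 0.42 and its adjusted p-value 0.0197. The kinases Mvk and Pmvk and the acetyl-CoA acetyltransferase Acat2 had log2 fold changes of -0.54, 0.61 and 0.16, with intervals that spanned 0. Mvk, at 14 to 32 counts in the stimulated libraries, passed without unstimulated isotype mouse 2 (log2 fold change -0.87, adjusted p-value = 0.0466).

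Between squalene and cholesterol, 4 of 10 genes rose, 2 fell and 4 were not called. That is 40% higher and 20% lower, against 35.6% higher and 35.7% lower of all protein-coding genes tested. The genes that rose act early in this stretch or in the removal of methyl groups from the sterol ring. Fdft1, Msmo1 and Nsdhl act in the same parts and were not called, so that no order along the pathway can be read. Sqle, which oxidises squalene in the first oxygen-requiring step, rose from 9.95 to 13.1 CPM to 40.6 to 49.1 CPM (3.63-fold, adjusted p-value = 9.33e-09). Lss, which closes the ring system to lanosterol, rose 3.45-fold, and Cyp51 and Hsd17b7, which act in demethylation, rose 3.88-fold and 3.35-fold. The 3 stimulated libraries lay above the 3 unstimulated ones for each of these genes, at mean levels of 3.13 ± 0.457 against 11.3 ± 2.54 CPM for Lss, 22.5 ± 2.79 against 92.1 ± 4.03 CPM for Cyp51 and 4.42 ± 1.31 against 15.1 ± 3.53 CPM for Hsd17b7. The genes that fell act late in the pathway, but so does Sc5d, which was not called. Dhcr7 was at 12.1 to 14.9 CPM without and 3.24 to 3.69 CPM with anti-CD3 (log2 fold change -2.01, SE 0.300, adjusted p-value = 2.49e-06), and the sterol isomerase Ebp went from 36.3 ± 3.18 to 22.2 ± 1.81 CPM (log2 fold change -0.79, adjusted p-value = 0.000234). Fdft1, which forms squalene, varied widely among unstimulated mice (31.5, 67.4 and 34.7 CPM) and was not called, nor were Nsdhl and Sc5d. Msmo1 had a log2 fold change of 0.36 (adjusted p-value = 0.0575) and passed without unstimulated isotype mouse 3 (0.53, adjusted p-value = 0.00867) or stimulated isotype mouse 1 (0.45, adjusted p-value = 0.036).

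Among the control genes, the 2 SREBP genes did not move alike. Srebf1 was at 57.7 to 70.5 CPM without and 35 to 44 CPM with anti-CD3 (log2 fold change -0.83, SE 0.143, adjusted p-value = 1.75e-05), whereas Srebf2 was at 21.1 ± 4.75 and 26.6 ± 1.91 CPM and was not called (log2 fold change 0.25, 95% interval -0.15 to 0.64). Scap rose from 20.2 ± 2.86 to 32.7 ± 1.6 CPM (adjusted p-value = 0.00349). Insig1, itself an SREBP target, had a log2 fold change of 0.68 (adjusted p-value = 0.0103), which missed the threshold without unstimulated isotype mouse 2 (0.51, adjusted p-value = 0.0662). Insig2 was not called (log2 fold change -0.48, adjusted p-value = 0.0653). Stard4, a cytosolic sterol carrier, was called higher (log2 fold change 0.84, adjusted p-value = 0.0339) from only 7 to 47 counts per library. This call was lost in 5 of the 6 fits that left out 1 library, all but the one without unstimulated isotype mouse 1, with log2 fold changes of 0.60 to 0.92 and adjusted p-values of 0.0517 to 0.157.

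In fatty acid synthesis, 3 of 7 genes tested rose, 2 fell and 2 were not called, and the elongases went in both directions. That is 42.9% higher and 28.6% lower, against 35.6% and 35.7% of all protein-coding genes tested. Fasn (chr11:120805846-120824547), the synthase itself, was at 17.4 to 21.6 CPM without and 134 to 157 CPM with anti-CD3 (log2 fold change 2.80, SE 0.142, adjusted p-value = 2.37e-14). Acaca, which supplies malonyl-CoA to the synthase, rose 2.92-fold, from 11.2 ± 0.719 to 34.5 ± 3.67 CPM. Elovl1, an elongase of very long saturated chains, rose 2.23-fold, from 46.5 ± 9.81 to 107 ± 11.1 CPM. The elongases Elovl5, which acts on polyunsaturated chains, and Elovl6, which extends palmitate, went the other way. Elovl5 was at 97.1 to 125 CPM without and 33.2 to 40 CPM with anti-CD3 (adjusted p-value = 9.01e-11), and Elovl6 at 8.3 to 13.9 and 2.36 to 2.46 CPM, the latter from 8 to 15 counts per library (adjusted p-value = 9.69e-06). The desaturases Scd2 and Fads1 had log2 fold changes of -0.40 and -0.19 and were not called. The spans of Cyp51, Elovl1, Acaca, Srebf1, Fdft1 and Mvd overlap protein-coding genes on the opposite strand (Akap9, Cdc20, Gm11437, Rai1, Ctsb and Gm20388). That of Fdps overlaps the protein-coding Gm43738 on the same strand, and Nr1h2 has a processed copy, Nr1h2-ps. Genes of other types also overlap members, and not all are given here. Among them are Gm48574 (Idi1), Gm48342 (Hmgcs1) and 4930483K19Rik (Lss) on the opposite strand, and Gm49502 (Srebf2) and Gm43072 (Elovl6) on the same strand. Whether counting used strand is not given in the sources used here, so that reads shared with these genes remain uncertain.

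Of all genes of the set, Abcg1 had the largest fold change. ABCA1 passes cholesterol to lipid-poor apolipoprotein, and ABCG1 to HDL particles. Abcg1 (chr17:31057675-31117988) was at 38.2, 36.5 and 34.2 CPM in mice 1 to 3 without and at 2.46, 2.14 and 5.83 CPM with anti-CD3 (log2 fold change -3.34, SE 0.275, adjusted p-value = 1.64e-10). Abca1 (chr4:53030787-53159895) was at 28.5, 17 and 21.6 CPM without and at 3.38, 4.93 and 3.4 CPM with anti-CD3 (log2 fold change -2.59, SE 0.280, adjusted p-value = 1.72e-08). In all 3 mice both exporters were lower with anti-CD3, and their stimulated levels rested on 8 to 36 counts (Abcg1) and 11 to 23 counts (Abca1) per library. Without stimulated isotype mouse 3, which had the most Abcg1, the log2 fold change of Abcg1 was -4.03. Nr1h2, the LXR gene of the set, was at 83.1 to 93.9 CPM without and 85.1 to 106 CPM with anti-CD3 and was not called (log2 fold change 0.07, 95% interval -0.18 to 0.32). Macrophages express both exporters. Of 13 myeloid markers, 8 were counted, with a summed level of 48.4 to 64.4 CPM in unstimulated and 30.1 to 42.3 CPM in stimulated isotype libraries, nearly all of it Cst3. Cd68 (0.664 to 3 CPM) and Fcer1g (0.332 to 3.68 CPM) were found in all 6 of these libraries. Adgre1 was at 0 in all 6, Csf1r was at 0 in all but unstimulated isotype mouse 2 (1.59 CPM), and Itgam, Tyrobp and C1qa were at 0 in the unstimulated and at 0 to 0.486 CPM in the stimulated ones. The part of myeloid cells in the levels of the exporters was not tested.

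**Figure D1:**
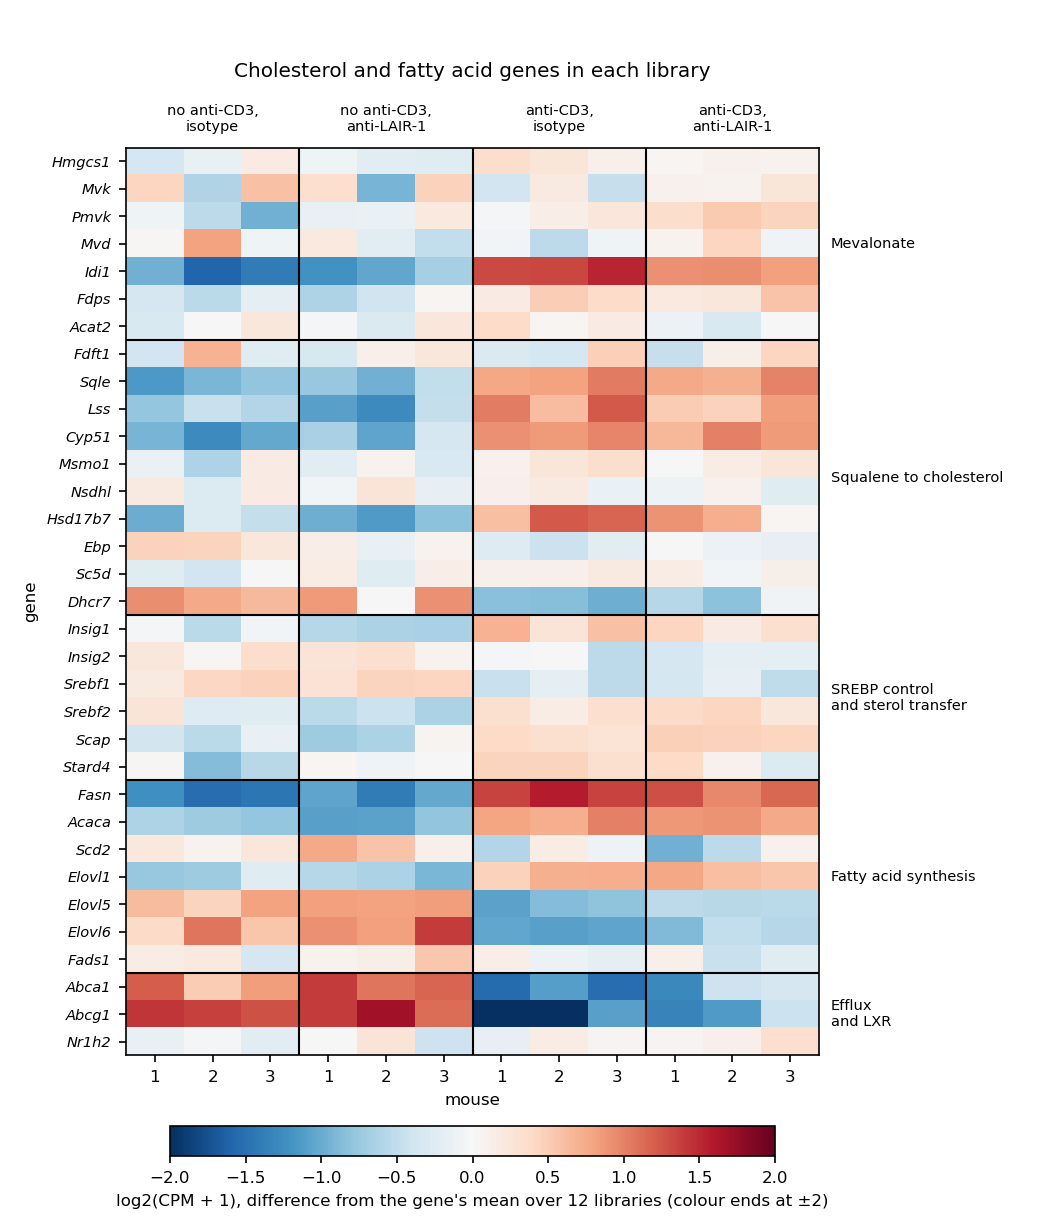
Level of each gene (rows, grouped by role) in each of the 12 libraries (columns, mouse 1 to 3 in each group), as log2(CPM + 1) minus the mean of the gene over all libraries. Red is higher and blue lower, with colours ending at ±2. Idi1, Sqle, Lss, Cyp51, Fasn and Acaca are red and Dhcr7, Elovl5, Elovl6, Abca1 and Abcg1 blue in the 6 libraries with anti-CD3, and most other rows are pale.

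The same stimulus was then followed in the presence of anti-LAIR-1, using 6 other libraries. Of 32 genes tested, 12 were higher (37.5%, against 36.8% of 8715 protein-coding genes) and 8 lower (25%, against 36%). Idi1 rose 3.72-fold, Fasn 4.98-fold, Sqle 3.01-fold, Cyp51 2.84-fold, Hsd17b7 3.64-fold, Lss 3.57-fold, Acaca 3.77-fold and Elovl1 2.55-fold. Abcg1 fell 5.88-fold, Abca1 4.1-fold, Elovl6 3.96-fold, Elovl5 2.63-fold and Dhcr7 2.42-fold. Idi1 was at 12.1, 13.7 and 18.2 CPM without and 56.1, 57 and 52.7 CPM with anti-CD3 in these wells. The groups did not overlap for any of the 20 genes called, but how often this holds among all genes called was not counted. Abca1 was at 32.5, 25.8 and 27.6 CPM without and 4.2, 8.5 and 9.09 CPM with anti-CD3, and Abcg1 at 37.2, 45.3 and 30.3 and at 4.74, 5.61 and 9.73 CPM. Mouse 1 was the lowest stimulated library for both exporters.

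Under both antibodies 11 genes were called higher (Idi1, Fdps, Sqle, Lss, Cyp51, Hsd17b7, Insig1, Scap, Fasn, Acaca and Elovl1) and 6 lower (Dhcr7, Srebf1, Elovl5, Elovl6, Abca1 and Abcg1), and none was called in opposite directions. A further 10 were called under neither (Hmgcs1, Mvk, Pmvk, Fdft1, Msmo1, Nsdhl, Sc5d, Acat2, Fads1 and Nr1h2). The same counts were not made over all genes, so that they cannot be read as a trait of the set. With anti-LAIR-1 alone, Srebf2 was called higher (from 15 ± 1.07 to 28.4 ± 2.07 CPM, log2 fold change 0.91, adjusted p-value = 4.17e-05), and Scd2 and Insig2 were called lower (log2 fold changes -1.05 and -0.51, adjusted p-values 0.00212 and 0.0168). With isotype alone, Stard4 was called higher and Ebp lower. These calls do not show a difference between the antibodies, and the test of that difference did not pass for any of the 5 genes (adjusted p-values 0.228 for Srebf2, 0.536 for Scd2, 0.968 for Insig2, 0.543 for Stard4 and 0.146 for Ebp). Insig2 missed the threshold without unstimulated anti-LAIR-1 mouse 2 (log2 fold change -0.45, adjusted p-value = 0.0657) or stimulated anti-LAIR-1 mouse 1 (-0.44, adjusted p-value = 0.076). In contrast, Hmgcs1 passed without unstimulated anti-LAIR-1 mouse 1 (0.29, adjusted p-value = 0.0489), Msmo1 and Nr1h2 without mouse 2 of that group (0.39 and 0.34, adjusted p-values 0.0211 and 0.0268), and Fads1 without stimulated anti-LAIR-1 mouse 1 (-0.67, adjusted p-value = 0.0432).

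**Figure D2:**
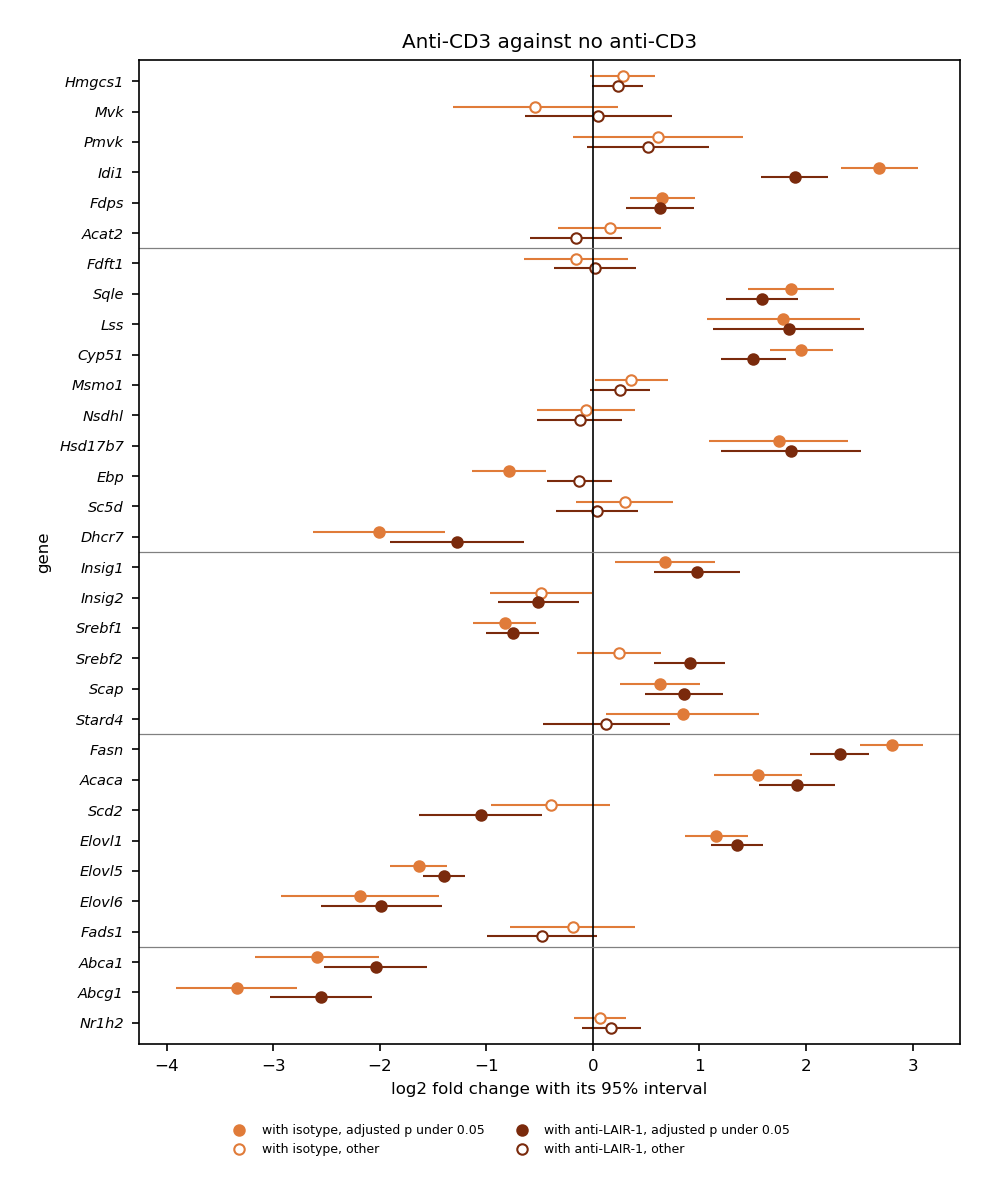
Log2 fold change of each gene with anti-CD3 against no anti-CD3 (horizontal axis), with its 95% interval, in the libraries with isotype (orange) and with anti-LAIR-1 (brown). Each estimate rests on 3 against 3 libraries, and filled points have an adjusted p-value under 0.05. Fasn lies farthest to the right and Abcg1 farthest to the left under both antibodies.

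Synthesis and efflux were set side by side in each library, as the difference in log2 CPM from the mean of the unstimulated isotype libraries. The median over 16 sterol synthesis enzymes was 0.444, 0.407 and 0.511 in stimulated mice 1 to 3 under isotype, and 0.290, 0.275 and 0.433 under anti-LAIR-1. Its value was -0.040 to 0.234 in the 6 unstimulated libraries, below every stimulated library. The sterol enzymes thus moved little as a group, because Idi1, Sqle, Lss, Cyp51 and Hsd17b7 rose while most of the others were not called and Ebp and Dhcr7 fell. The median over 7 fatty acid genes was -0.184 to 0.138 in stimulated isotype and -0.469 to 0.108 in stimulated anti-LAIR-1 libraries. These ranges overlapped the unstimulated range of -0.107 to 0.209, since the members went in both directions. Abca1 was at -2.537, -2.049 and -2.530 in stimulated isotype and at -2.259, -1.318 and -1.225 in stimulated anti-LAIR-1 libraries. Abcg1 was at -3.646, -3.810 and -2.542 and at -2.815, -2.593 and -1.847 in the same libraries. No test of synthesis against efflux was made, because the genes of each group were chosen and are not replicates.

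**Figure D3:**
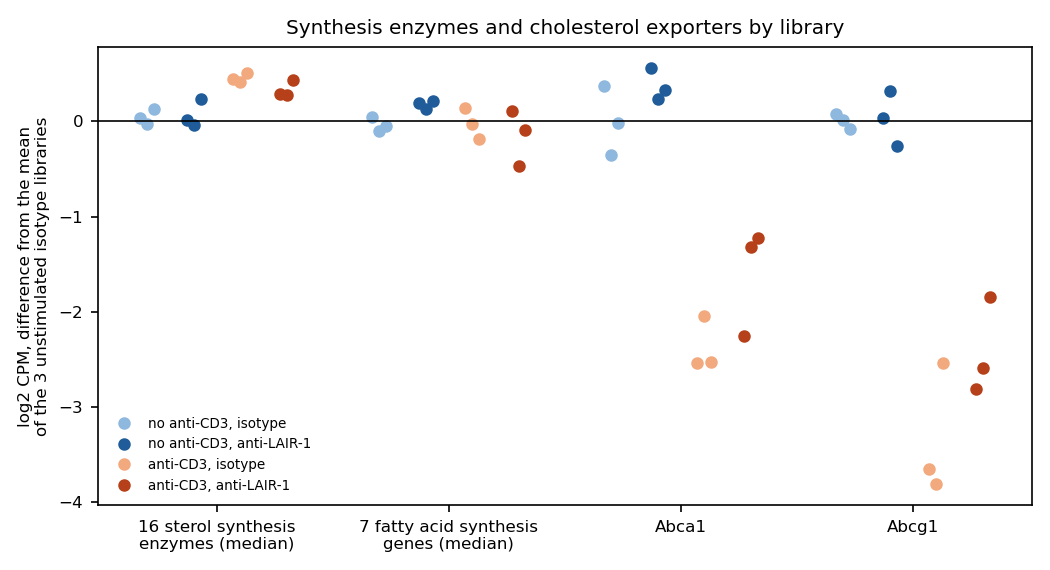
Difference in log2 CPM from the mean of the 3 unstimulated isotype libraries (vertical axis) for the median of 16 sterol synthesis enzymes, the median of 7 fatty acid synthesis genes, Abca1 and Abcg1. Each point is 1 library, and colours are the 4 groups. The sterol enzyme medians lie between 0.275 and 0.511 in stimulated libraries, while Abca1 and Abcg1 lie between -3.810 and -1.225.

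Whether LAIR-1 ligation altered the set in stimulated cells was examined by comparing anti-LAIR-1 with isotype in the stimulated wells, whose libraries also entered the comparisons above. Idi1 was the only 1 of 33 genes called. It was lower with anti-LAIR-1, at 56.1, 57 and 52.7 CPM against 74.7, 75.7 and 86.1 CPM with isotype, a 1.43-fold difference (log2 fold change -0.51, SE 0.097, adjusted p-value = 0.00363). All 3 mice were lower, the groups did not overlap, and every stimulated library stayed above every unstimulated one, the highest of which was at 18.2 CPM. The summed level of the 9 activation genes was 3517 to 4055 CPM with anti-LAIR-1 against 4018 to 4350 CPM with isotype, ranges that overlapped. Of these genes, Il2ra was at 208 to 220 against 272 to 320 CPM. Mean levels of Egr1 and Egr2 were higher with anti-LAIR-1 (107 against 86.5 CPM and 306 against 282 CPM), and those of the other genes were lower. The part of these shifts in the level of Idi1 was not tested. So 3.03% of the set was lower and 0 were higher, against 1.88% lower and 3.93% higher of 8531 protein-coding genes tested, in which no excess among the set can be read. The other sterol enzymes that anti-CD3 raised were not called, at 43.7 ± 4.64 and 42.2 ± 4.72 CPM for Sqle (log2 fold change -0.06, 95% interval -0.32 to 0.20) and 92.1 ± 4.03 and 87.4 ± 10.2 CPM for Cyp51 (-0.08, -0.28 to 0.13). The estimates for Lss (11.3 ± 2.54 and 8.55 ± 1.39 CPM, log2 fold change -0.42, 95% interval -0.90 to 0.06) and Hsd17b7 (15.1 ± 3.53 and 11.1 ± 3.46 CPM, -0.44, -0.93 to 0.05) were nearer to that of Idi1, with wider intervals, and Fdps was at -0.02 (-0.27 to 0.24). The median over the 30 synthesis and control genes tested was -0.060, against 0.004 for all genes.

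Several genes lay near the threshold. Fasn was at 134 to 157 CPM with isotype and 102 to 128 CPM with anti-LAIR-1, which did not overlap (log2 fold change -0.29, adjusted p-value = 0.0939). Elovl5, which anti-CD3 lowered, was at 33.2 to 40 CPM with isotype and 48 to 49.1 CPM with anti-LAIR-1 (log2 fold change 0.38, 95% interval 0.14 to 0.62, adjusted p-value = 0.0556). Neither passed. Abca1, at 3.38 to 4.93 against 4.2 to 9.09 CPM, had a log2 fold change of 0.86 with a wide interval (0.16 to 1.56, adjusted p-value = 0.157), and Abcg1, at 2.14 to 5.83 against 4.74 to 9.73 CPM, one of 0.82 (0.02 to 1.62, adjusted p-value = 0.252). Both were higher with anti-LAIR-1 in 3 of 3 mice, but the groups overlapped and neither difference passed. Without stimulated anti-LAIR-1 mouse 1, the lowest library of its group, the log2 fold change of Abca1 was 1.17 with an adjusted p-value of 0.0333. Its adjusted p-values in the other 5 fits without a library were 0.17 to 0.404. For Abcg1 the log2 fold change was 0.47 to 1.51 in such fits, the highest without stimulated isotype mouse 3 (adjusted p-value = 0.0643), and none passed. The stimulated anti-LAIR-1 libraries also held more of the 10 naive markers, with a summed level of 2277 to 2603 CPM against 1807 to 1927 CPM, whereas the 8 myeloid markers overlapped (35.5 to 45.4 against 30.1 to 42.3 CPM). The part of either in the levels of Abca1 and Abcg1 was not tested.

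**Figure D4:**
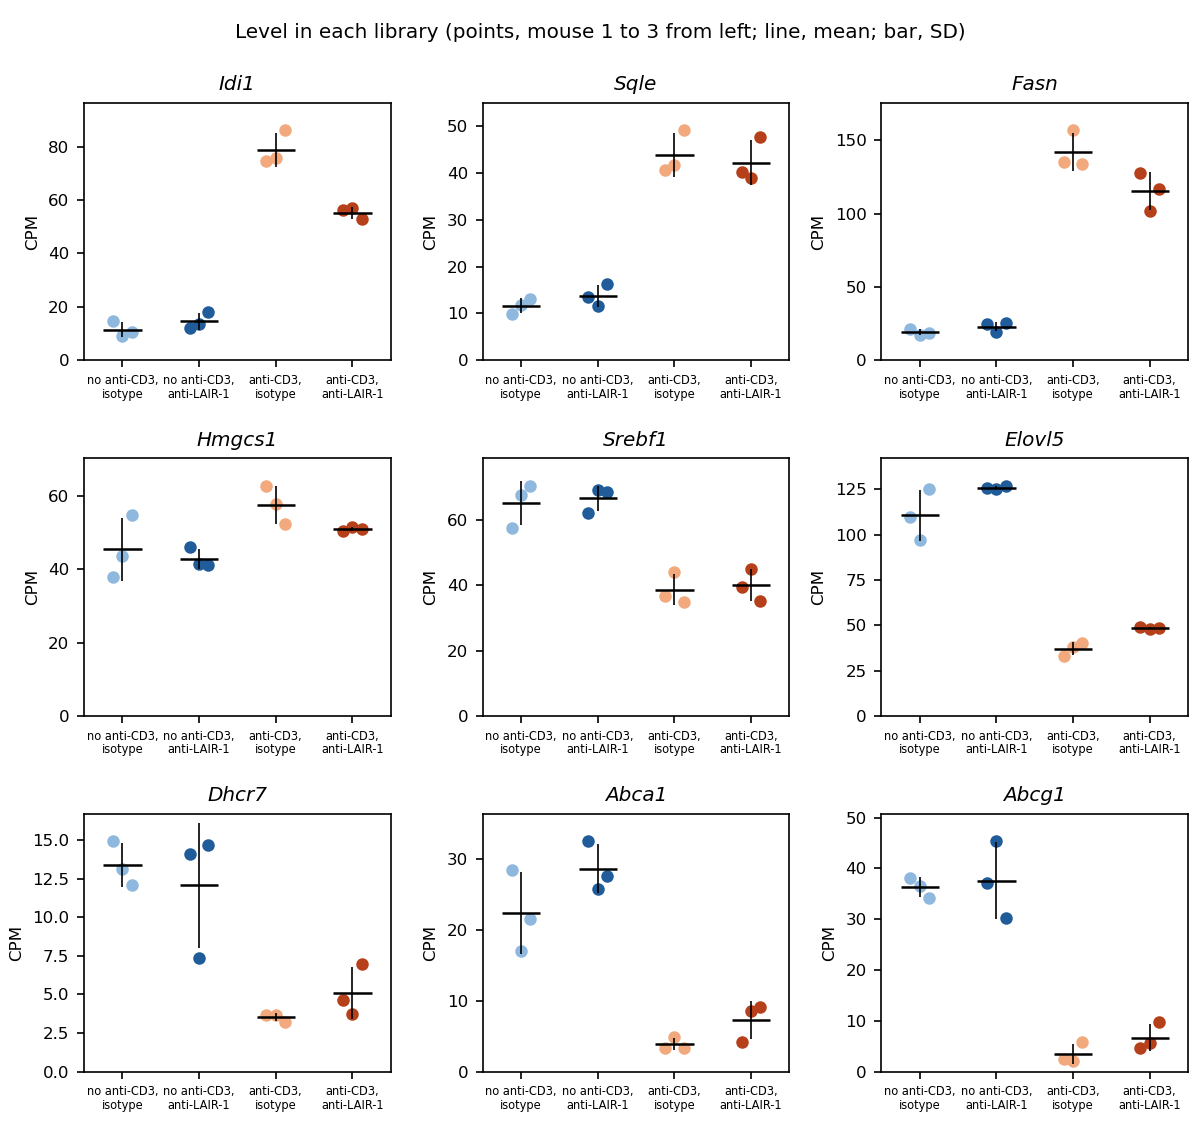
CPM of 9 genes (vertical axes, each from 0) in the 4 groups, with 1 point per library, a line at the mean and a bar of ± 1 SD (n = 3). With anti-CD3, Idi1 is at 52.7 to 57 CPM with anti-LAIR-1 and at 74.7 to 86.1 CPM with isotype, whereas Sqle overlaps between the antibodies.

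In unstimulated cells, anti-LAIR-1 against isotype gave no call in the set (0 of 32) and 0 of 8492 protein-coding genes (0%) in edgeR or DESeq2. Before adjustment, 365 genes in edgeR and 201 in DESeq2 lay below 0.05. In the set these were 2 genes in edgeR, Ebp and Srebf2, both lower with anti-LAIR-1 in 3 of 3 mice (log2 fold changes -0.40 and -0.53, adjusted p-value 0.997 for both). Idi1 was at 11.4 ± 2.85 CPM with isotype and 14.7 ± 3.16 CPM with anti-LAIR-1 (log2 fold change 0.32, 95% interval -0.21 to 0.86). Abca1 was at 22.4 ± 5.79 and 28.6 ± 3.49 CPM (0.32, -0.08 to 0.73) and Abcg1 at 36.3 ± 2 and 37.6 ± 7.52 CPM (0.03, -0.32 to 0.37).

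The interaction of both antibodies over all 12 libraries then tested whether the effect of anti-LAIR-1 differed with anti-CD3. None of 33 genes passed, against 1.84% higher and 0.247% lower of 8908 protein-coding genes. Idi1 came nearest, with an interaction of -0.83 on the log2 scale (95% interval -1.33 to -0.32, adjusted p-value = 0.0805), and it was negative in 3 of 3 mice. Without unstimulated isotype mouse 1, its highest library of that group, the value was -1.07 with an adjusted p-value of 0.0396. The interaction was 0.53 for Abca1 (95% interval -0.25 to 1.32) and 0.76 for Abcg1 (-0.05 to 1.57), which leaves room for no difference and for one of more than 2-fold.

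**Figure D5:**
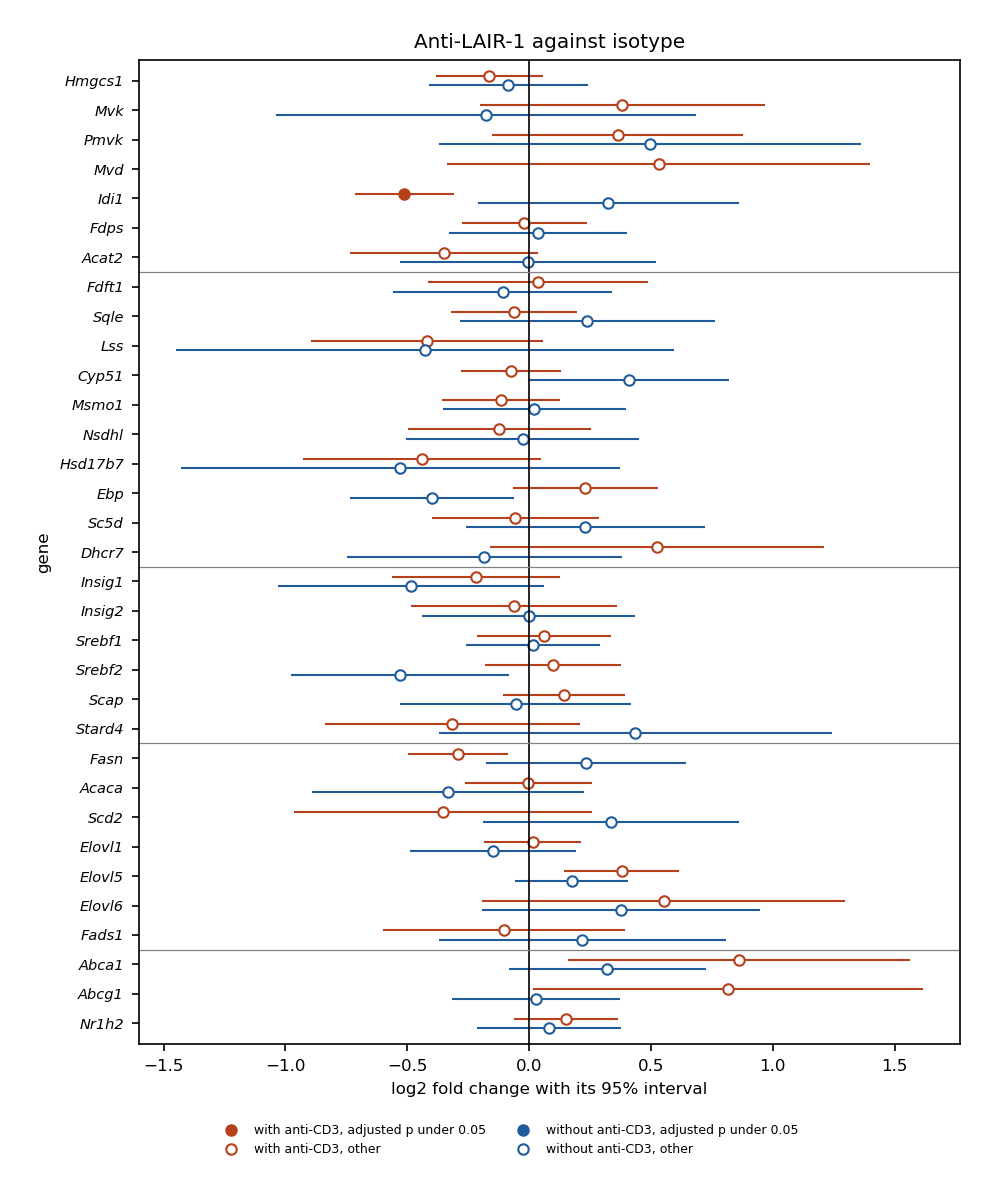
Log2 fold change of each gene with anti-LAIR-1 against isotype (horizontal axis), with its 95% interval, with anti-CD3 (red) and without it (blue). Each estimate rests on 3 against 3 libraries, and filled points have an adjusted p-value under 0.05. Idi1 with anti-CD3 is the only filled point, and Abca1 and Abcg1 with anti-CD3 lie farthest to the right, with wide intervals.

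Beyond the set, 102 other genes of sterol and fatty acid metabolism were listed, of which 95 were counted. With anti-CD3 and isotype, 29 of 80 tested were higher (36.2%, against 35.6% of all protein-coding genes) and 34 lower (42.5%, against 35.7%). All 10 tested genes of the LXR and efflux list were called, 7 lower (70%) and 3 higher (30%), and 9 of 13 fatty acid oxidation genes were lower (69.2%) and 1 higher (7.69%). The counts with anti-LAIR-1 were 33 higher (40.2%, against 36.8% of all) and 32 lower (39%, against 36%) of 82, with 7 lower and 3 higher of 10 in the LXR and efflux list. The largest changes with isotype were those of Dgat2, Smpdl3a and Elovl7. Dgat2, which makes triglyceride, had 2 counts over the 3 unstimulated libraries and 374 over the stimulated ones, a ratio of 98.7 with a counting interval of 27.1 to 818. Smpdl3a, an LXR target phosphodiesterase, fell from 42.5 ± 17 to 1.39 ± 1.22 CPM, and Elovl7 from 11.8 ± 7.23 to 0.776 ± 0.956 CPM. With anti-LAIR-1 they were Dgat2 (2 against 357 counts, ratio 111, interval 30.4 to 918), Rxra, the partner of LXR (log2 fold change -3.36, from 7.64 ± 2.13 to 0.769 ± 0.464 CPM), and Arl4c, an LXR target GTPase (also -3.36, from 172 to 194 CPM to 15.8 to 23.5 CPM).

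With anti-CD3, 6 of 80 tested genes of this list were called for anti-LAIR-1, 5 higher (6.25%, against 3.93% of all protein-coding genes) and 1 lower (1.25%, against 1.88%). Smpdl3a, 1 of the 5, was known to rise in these data when the list was written, so that no excess can be read. Arl4c was at 9.22, 7.5 and 10.7 CPM with isotype and 16.1, 15.8 and 23.5 CPM with anti-LAIR-1 (log2 fold change 0.99, adjusted p-value = 0.00903), and Smpdl3a at 2.77, 0.429 and 0.972 and at 5.56, 6.12 and 4.44 CPM (2.12, adjusted p-value = 0.00836). Gramd1a, which carries cholesterol from the plasma membrane, was at 53.2 to 56.8 and 79.8 to 102 CPM (0.70, adjusted p-value = 0.000537). These 3 genes had been lowered by anti-CD3 and stayed well below their unstimulated levels. Lbr, a sterol reductase of the nuclear membrane, and Hadhb, of fatty acid oxidation, were also higher (0.51 and 0.50, adjusted p-values 0.0258 and 0.0167), and the fatty acid carrier Fabp5 was lower (-0.46, adjusted p-value = 0.0118). Gramd1a passed in all 6 fits that left out 1 library. Arl4c missed the threshold without stimulated isotype mouse 2 (0.86, adjusted p-value = 0.0588), and Smpdl3a without isotype mouse 2 or 3 (1.71 and 1.91, adjusted p-values 0.0544 and 0.0528). Fabp5 missed it without stimulated anti-LAIR-1 mouse 1 or 2 (-0.42 and -0.45, adjusted p-values 0.0528 and 0.0529). Hadhb missed it without mouse 1 or 2 of either stimulated group (0.44 to 0.51, adjusted p-values 0.0536 to 0.077), and Lbr without isotype mouse 1 or 3 or anti-LAIR-1 mouse 2 or 3 (0.43 to 0.50, adjusted p-values 0.0756 to 0.103). With the mouse as a block in DESeq2, Lbr, Hadhb and Fabp5 missed the threshold (adjusted p-values 0.172, 0.134 and 0.11), whereas with the block in edgeR they passed (0.0211, 0.0187 and 0.0159). Fabp5 also missed it after thinning to the smallest total (adjusted p-value = 0.119) and with all 12 libraries in 1 fit (0.12). The fold change of Smpdl3a rests on only 2 to 9 counts per stimulated isotype library, and without isotype mouse 1 it was 2.85 on the log2 scale.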

How the data were processed

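Sorted naïve CD8+ T cells from 3 mice were cultured for 6 h in 4 conditions. Their bulk RNA was sequenced by an adapted form of CEL-seq, a single-cell method that tags the 3′ end of transcripts. The deposited values were raw counts per gene symbol and library, made by the authors with the MapAndGo script. Reads were aligned to the mouse reference transcriptome, and those without a single best position were dropped. The submitters' processing notes name BWA and mm10. Whether molecular identifiers were collapsed and whether counting used strand is not given in the sources used here.

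Counts of all symbols were fitted with edgeR 4.0.16 in R 4.3.3 (TMM factors, filterByExpr, quasi-likelihood F-test, two-sided, Benjamini-Hochberg over all genes tested, threshold 0.05). Background shares were taken over protein-coding genes (GENCODE M21 types, 14262 of 14323 symbols matched, 13150 protein coding). Each comparison used its own 6 libraries and the interaction all 12. The log2 CPM of single libraries carry a prior count of 2, which was not used for the fitted log2 fold changes. Totals were 1781218 to 7725545 counts, and p-values and intervals rest on 3 mice per group. Libraries of the same mouse are paired by the animal. The correlation of their deviations from the group means averaged 0.0431 over 18 pairs and -0.0216 over 36 pairs of different mice (9223 genes). Alternatives were DESeq2 1.42.0, other scalings and filters, thinning to the smallest total, mouse as a replicate block, all libraries in 1 fit and each library left out. Scripts were tested on simulated data.

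The members and lists were chosen with earlier results of these data known, and Smpdl3a of the wider list was known to rise. Values in every library were given for members called in a comparison of the antibodies and for Abca1 and Abcg1, and other members by range and count. From the wider list, genes called for anti-LAIR-1 with anti-CD3 or in the interaction were named, and otherwise the 3 largest fold changes. Gene spans are GENCODE M21 and promoter windows RefSeq, both on GRCm38.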

Additional observations from a re-analysis of the deposited data

Results flagged for a closer look

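Across the 4 groups, 3 of 82 genes tested from the wider sterol and fatty acid list (3.66%, all higher, against 1.84% higher and 0.247% lower of all protein-coding genes) differed in their response to anti-LAIR-1 between stimulated and unstimulated cells by the interaction test of edgeR. Because Smpdl3a, 1 of the 3, was known to rise when the list was written, no excess can be read from these shares. The effect with anti-CD3 minus that without, on the log2 scale, was 0.597 for Gramd1a (adjusted p-value = 0.0213), 0.794 for Arl4c (adjusted p-value = 0.0456) and 2.068 for Smpdl3a (adjusted p-value = 0.0341). All 3 calls were lost after thinning to the smallest total (adjusted p-values 0.158, 0.0618 and 0.196), that of Smpdl3a also in DESeq2 (0.0542), and all 3 in some fits without 1 library. Gramd1a missed the threshold without unstimulated isotype mouse 2, unstimulated anti-LAIR-1 mouse 1 or 3, stimulated isotype mouse 1 or 2, or stimulated anti-LAIR-1 mouse 3 (0.492 to 0.592, adjusted p-values 0.051 to 0.0938). Arl4c missed it without mouse 1 or 2 of either isotype group, unstimulated anti-LAIR-1 mouse 1 or 3, or stimulated anti-LAIR-1 mouse 3 (0.602 to 0.802, adjusted p-values 0.0775 to 0.201). Smpdl3a missed it without unstimulated isotype mouse 1 or 2, unstimulated anti-LAIR-1 mouse 3, stimulated isotype mouse 2 or 3, or stimulated anti-LAIR-1 mouse 1 or 2 (1.664 to 2.043, adjusted p-values 0.0605 to 0.167), and was 2.769 without stimulated isotype mouse 1. Lbr, not called with all libraries, passed in DESeq2 (0.555, adjusted p-value = 0.0457) and without unstimulated anti-LAIR-1 mouse 2 (0.646, adjusted p-value = 0.0362).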

How the results depend on the processing

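No gene of the set that was called changed sign under any setting run. For anti-LAIR-1 with anti-CD3, 1 gene of the set was higher with no filter on low counts or with all 12 libraries in 1 fit (Elovl5 in both), and 0 to 1 without 1 library (Abca1 without stimulated anti-LAIR-1 mouse 1). With no filter, 2 were lower (Idi1 and Fasn). In the interaction, 1 was lower with no filter (Idi1), and 0 to 1 without 1 library (Idi1 without unstimulated isotype mouse 1). The causes were not tested. With the replicate block, 12 genes were higher and 7 lower with isotype, 12 and 8 with anti-LAIR-1, and 0 and 1 for anti-LAIR-1 with anti-CD3, and in edgeR it changed no call of the set. DESeq2 without the block lost Stard4 with isotype and Insig2 with anti-LAIR-1, and with the block also Insig1 with isotype. Scap missed the threshold with isotype when libraries were thinned. Upper quartile factors moved the median of all genes for anti-CD3 from -0.014 to -0.190 (isotype) and from -0.022 to -0.229 (anti-LAIR-1), and library totals moved it to -0.106 and -0.134. The genes of the set called were then 10 higher and 8 lower, and 12 and 10, with upper quartile factors, and 11 and 8, and 12 and 9, with totals. All genes called for anti-LAIR-1 with anti-CD3 numbered 495, against 234 in DESeq2 with the block and 314 after thinning, and 79.7% of those called with all libraries in 1 fit were higher, against 67.7%. The interaction called 186, and 107 after thinning. Members with few counts, such as Scd1 and Mvd, are limited by depth.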
